A study of Mus musculus with 2 samples.

Results

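Corneal epithelial cells rich in basal adhesion RNA were selected on the share of their UMIs (unique molecular identifiers, each standing for 1 captured RNA molecule) that came from Col17a1, Itgb4, Itga6 and Lamb3, as the 20% of Krt12-dominant cells with the largest share. They comprised 825 cells, 461 in library 1 and 364 in library 2, out of 4125 Krt12-dominant cells and 6752 barcodes. A barcode entered with 500 or more detected genes and a mitochondrial share below 20% (6188 did), and Krt12-dominant cells among them had at least 5 UMIs of Krt12 and Krt15 together and a Krt12 fraction of that sum above 0.8. Within each library these adhesion-high cells were compared with the 20% of Krt12-dominant cells that had the smallest share, called adhesion-low cells, another 825 cells. The 4 adhesion genes and both keratins set the choice, so their values are given only as a description.

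The cells came from the corneas of CycB1-GFP mice, whose green fluorescent reporter follows Cyclin B1 and so marks cycling cells. Epithelium was freed with Dispase, dissociated with trypsin and sorted for live GFP-positive cells, so every cell compared here, adhesion-high or adhesion-low, passed the same sort, and non-cycling cells were selected against. Both libraries carry this genotype, no treatment is labelled, and the age and number of mice are not stated in the labels. The labels describe 1 group of 2 replicates without saying that they came from separate animals. The p-values therefore rest at most on the spread between these libraries, pooled over genes in the edgeR fit, and that spread may be technical. The deposited barcodes carry 1 of 2 endings, called library 1 and library 2, with no stated link to the replicate numbers.

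In a stratified epithelium only the basal layer touches the basement membrane. Basal cells are held there by hemidesmosomes, in which integrin alpha 6 beta 4 and collagen XVII bind laminin 332 (which contains the Lama3 and Lamb3 chains) outside the cell, and plectin and dystonin (BPAG1) tie them to keratin filaments inside. Cells that leave the layer lose these contacts, build more desmosomes and switch on surface genes such as membrane mucins, while Krt12 is the keratin typical of corneal epithelium and Krt15 is higher in limbal and conjunctival cells.

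The chosen cells had a median of 28.5 gate UMIs per 10000 in library 1 and 29.2 in library 2, against 6.04 and 6.50 in adhesion-low cells. These shares rest on few molecules, a median of 13 and 14 gate UMIs per cell in adhesion-high cells and 3 and 4 in adhesion-low cells. The gate cut through a continuous range: the cells just inside and just outside it had 23.09 and 23.07 per 10000 in library 1 and 23.47 and 23.42 in library 2. Krt12 remained abundant, at 11764 and 16470 CPM of all UMIs (counts per 1e+06 UMIs) in adhesion-high cells against 18114 and 24001 in adhesion-low cells, and Krt5 was present in all 5 bins. When the gate was rebuilt without one of its genes, the gene left out was still higher in adhesion-high cells in both libraries, from 1.63 times (Col17a1, library 1) to 4.11 times (Lamb3, library 2), given as ratios with no test.

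Depth differed between the groups. Adhesion-high cells had a median of 4381 UMIs per cell in library 1 and 3910 in library 2, against 5700 and 6222.5 in adhesion-low cells, and a median mitochondrial share of 3.33% and 3.40% against 2.45% and 3.12%. Malat1, a nuclear RNA that is relatively enriched in damaged cells, took 2.08% and 1.53% of UMIs against 1.40% and 1.15%. For this reason each comparison was repeated with both groups taken within deciles of depth, where the medians were 5785 against 5786 UMIs in library 1 and 6370 against 6356 in library 2. Keratocyte markers (6 of 6) were at 0 UMIs in all 4 sums, immune markers summed to between 1 and 12 UMIs, and the conjunctival goblet cell gene Muc5ac was at 0. Melanocyte markers summed to 16 and 13 UMIs in adhesion-low cells and 4 and 16 in adhesion-high cells. Schwann cell markers summed to between 2 and 5 UMIs and endothelial markers to between 0 and 1. The summed conjunctival keratin and Agr2 list was lower in adhesion-high cells, at 98.0 and 63.4 CPM against 387 and 346. Krt13 made up 78.2% and 70.2% of that list's UMIs in adhesion-low cells, and without it the sums were 83.2 and 56.5 CPM against 84.3 and 103, nearly equal in library 1. The libraries held 19001107 and 18030874 UMIs in all, and 5 barcode sequences occurred in both, 2 of them among Krt12-dominant cells. No doublet caller was run, and doublets may remain. Leaving out the 3% deepest cells of each library gave 422 genes higher and 522 lower, near the counts given next.

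**Figure D1:**
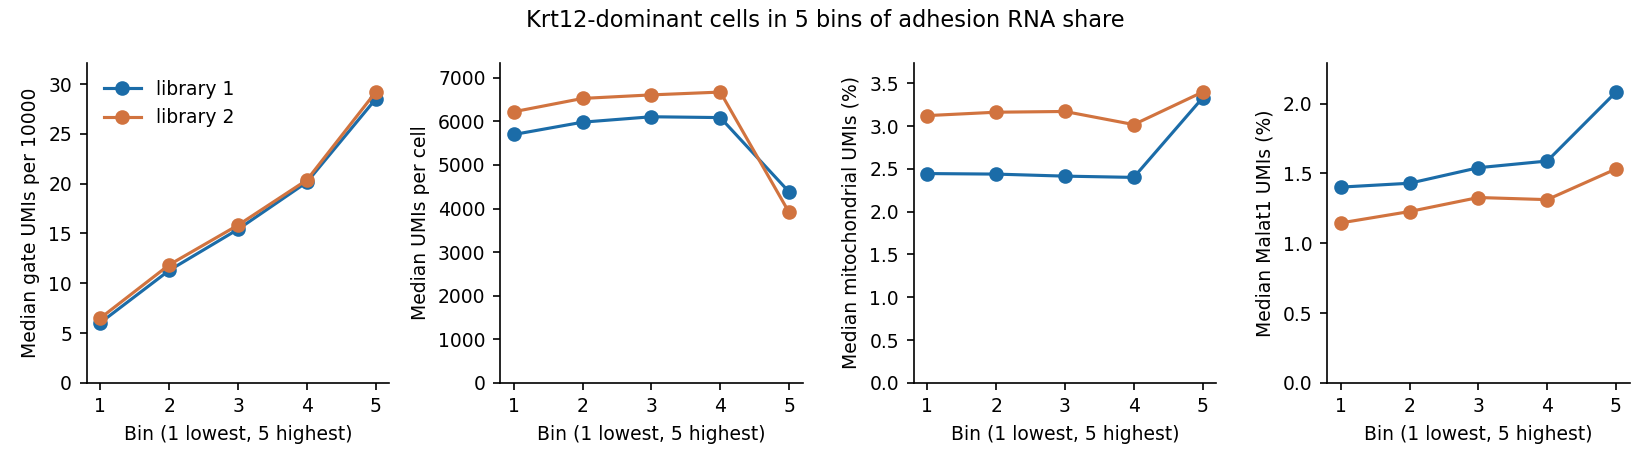
Medians per cell over 5 equal bins of Krt12-dominant cells, ordered by adhesion share (x axis, 1 lowest to 5 highest), for library 1 (blue) and library 2 (orange): gate UMIs per 10000, UMIs per cell, mitochondrial share and Malat1 share in percent. Depth was lower in the highest bin than in the other 4 bins in both libraries, at 4381 and 3910 UMIs.

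Cells rich in adhesion RNA carried more RNA of 8 of 13 other basement membrane genes, 5 of 14 matrix receptors and 8 of 18 cytoplasmic linkers, and less RNA of 19 of 24 surface differentiation genes. UMIs were summed per library and group and tested with edgeR's quasi-likelihood test with library as a block, and p-values were adjusted by Benjamini-Hochberg over 9755 genes with a threshold of 0.05. By this rule 442 genes were higher (4.53% of those tested) and 581 lower (5.96%), or 10.5% in either direction. Without TMM scaling the split was 551 higher and 475 lower. No called gene changed sign, and the median over all genes moved from 0.00 to 0.06 on the log2 scale. The fit pooled the spread over genes so fully that a gene's own disagreement between the libraries did not widen its error, and 13 of the 1023 calls had opposite signs in the libraries. DESeq2, which draws each gene's dispersion towards a fitted trend, called 28 higher (0.288%) and 93 lower (0.957%). Within depth deciles 478 were higher (4.84%) and 642 lower (6.5%), and 884 genes were called both ways, 86.4% of the calls by library and 78.9% of those within deciles. The list counts below are to be set against the shares of all genes called in the same comparison. Levels below are CPM after TMM scaling with the gate genes left out, and fold changes are log2 values, adhesion-high against adhesion-low. The value after ± is a standard error from the pooled edgeR fit, so it does not show how far apart a gene's 2 libraries lay.

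Among extracellular matrix genes of the basement membrane, 8 of 13 tested were higher and 1 was lower, against 4.53% and 5.96% of all genes, with a median log2 fold change of 0.84 where that of all genes was 0.00. Lama3, the alpha chain of laminin 332, stood at 55.1 and 53.9 CPM in the adhesion-low cells of libraries 1 and 2 and at 185 and 180 CPM in the adhesion-high cells. Both adhesion-high values lay above both adhesion-low values and the libraries nearly coincided (1.74 ± 0.14, edgeR adjusted p = 7.06e-34).

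Col7a1, which encodes the collagen of the anchoring fibrils below the basement membrane, rose from 10.3 and 15.3 CPM to 50.0 and 45.5 CPM (1.92 ± 0.24, edgeR adjusted p = 7.71e-14). Agrn and Hspg2, the heparan sulfate proteoglycans agrin and perlecan, were higher by 1.03 ± 0.20 and 1.47 ± 0.37 (edgeR adjusted p = 8.03e-06 and 0.00168). Nid1, a linker of laminin and collagen IV networks, and the laminin chains Lamc1 and Lamb1 were higher by 0.84, 0.98 and 0.50 (edgeR adjusted p = 0.0108, 0.0367 and 0.0407), and Lamb1 did not pass within depth deciles (adjusted p = 0.18). Nid1 was at 0.37 in library 1 and 1.22 in library 2 and kept its call under 9 of 22 alternatives, and Hspg2 was at 1.77 and 0.78. Lamb1 kept its call under 5 of 22 alternatives, and Lamc1 under 6 of the 21 that gave it an adjusted p. The exception was Fras1, a basement membrane adhesion protein of the embryo, at 21.8 and 15.3 CPM in adhesion-low cells and 5.86 and 9.55 in adhesion-high cells (log2 change of -1.31 ± 0.32, edgeR adjusted p = 0.00115). The 4 members that did not pass, Col4a5, Lamb2, Lama5 and Frem2, had log2 values from 0.01 to 0.66.

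Of 14 receptors for the matrix other than those of the gate, 5 were higher and none was lower, with a median of 0.23. Itga3, the integrin subunit that with beta 1 binds laminin 332, stood at 37.7 and 32.1 CPM in adhesion-low cells and 127 and 101 in adhesion-high cells (1.71 ± 0.15, edgeR adjusted p = 4.98e-26). Its level rose at each step over 5 equal bins of the gate in both libraries. Itgb1, its partner, stood at 140 and 154 CPM in adhesion-low cells and 331 and 277 in adhesion-high cells (1.05 ± 0.12, edgeR adjusted p = 1.12e-15), and also rose at each step. Itga2, the collagen-binding subunit, stood at 9.91 and 9.30 CPM against 35.2 and 39.3 (1.94 ± 0.26, edgeR adjusted p = 2.04e-11). Smaller differences were those of Bcam, a receptor for laminin alpha 5 (0.53 ± 0.14), and Sdc4, a syndecan (0.34 ± 0.11), with edgeR adjusted p = 0.00413 and 0.023. The other 9, among them the tetraspanins Cd151 and Cd9 and dystroglycan (Dag1), did not pass and lay between -0.30 and 0.40.

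Inside the cell, 8 of 18 linker genes were higher and 1 was lower, with a median of 0.38. Dst, which encodes BPAG1, stood at 275 and 343 CPM in adhesion-low cells and 496 and 576 in adhesion-high cells (0.80 ± 0.11, edgeR adjusted p = 1.28e-10). Plec, plectin, stood at 307 and 343 CPM against 477 and 608 (0.73 ± 0.11, edgeR adjusted p = 6.57e-09). Both rose at each step over the bins in both libraries and both passed with DESeq2 (adjusted p = 0.00375 and 0.0141). Of the focal adhesion genes, talin (Tln1), paxillin (Pxn), zyxin (Zyx) and tensin 4 (Tns4) were higher by 0.72, 0.99, 0.88 and 0.62, and the spectraplakin Macf1 by 0.48, which did not pass within depth deciles (adjusted p = 0.0575). Actn1, an actin crosslinker, was higher by 1.96 ± 0.33 in the joint fit (edgeR adjusted p = 1.71e-07), but by 2.25 in library 1 and 0.27 in library 2, where it had 6 UMIs in each group. Within depth deciles 7 matrix genes, 5 receptors and 7 linkers were higher, and DESeq2 called 2, 3 and 2 of these lists higher in the groups by library. Actn4, the paralogue of Actn1, was the 1 linker that was lower, at 585 and 676 CPM against 398 and 470 (log2 change of -0.54 ± 0.11, edgeR adjusted p = 3.29e-05), and did not pass without the cells richest in surface RNA (adjusted p = 0.41).

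Of 12 actomyosin genes, which form the contractile and membrane-linked actin network, 4 were higher and 1 lower, with a median of 0.23. Those higher were moesin (Msn), tropomyosin 1 (Tpm1, 1.35 ± 0.25), filamin A (Flna, 0.94 ± 0.15) and non-muscle myosin heavy chain (Myh9, 0.66 ± 0.12). Tpm1 was at 1.68 in library 1 and 0.87 in library 2. Msn stood at 9.12 and 4.19 CPM in adhesion-low cells and 59.5 and 8.42 in adhesion-high cells, a log2 difference of 2.68 in library 1 and 0.98 in library 2. Actg1, cytoplasmic gamma actin, was lower by a small amount (log2 change of -0.24), and did not pass without TMM scaling. It was named after its value was seen.

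**Figure D2:**
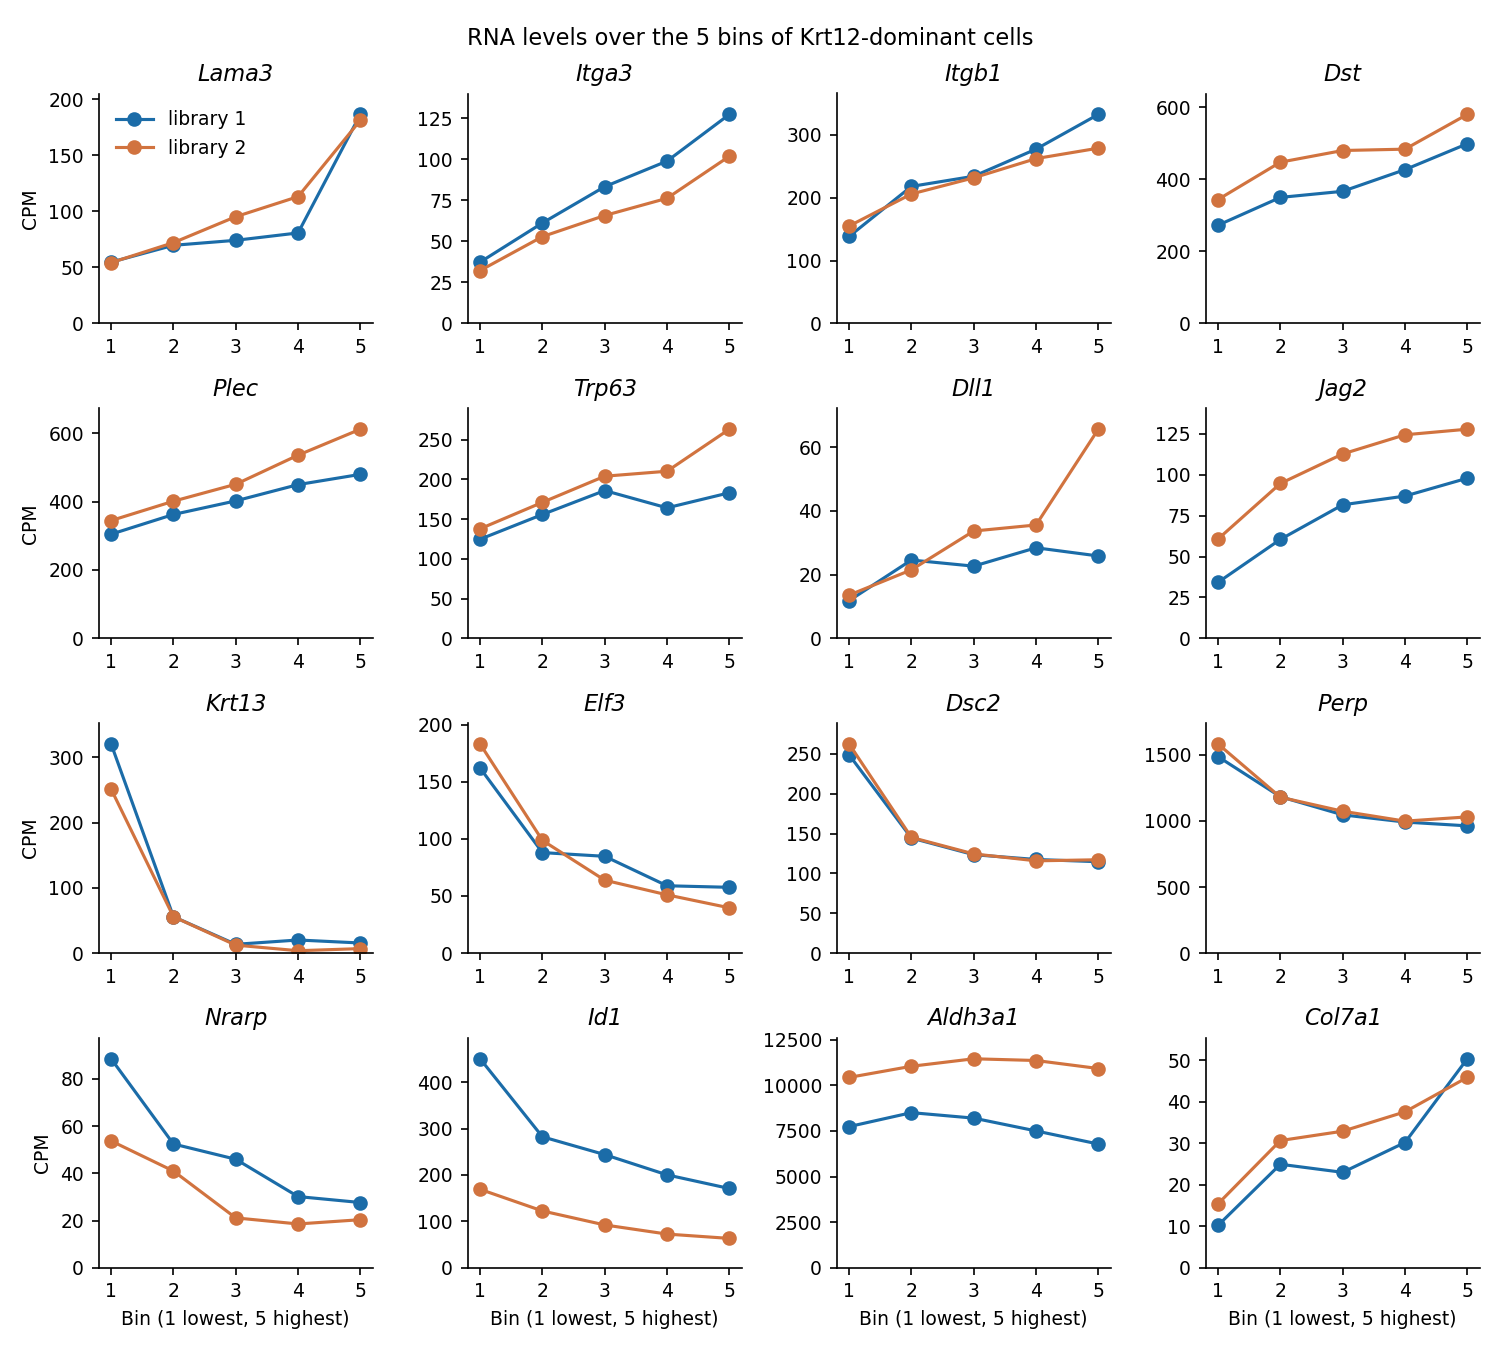
RNA levels in CPM (y axis, from 0) over 5 equal bins of Krt12-dominant cells (x axis, 1 lowest to 5 highest) for 16 genes in library 1 (blue) and library 2 (orange). Itga3, Itgb1, Dst, Plec and Jag2 rose at each step in both libraries, while Krt13 dropped mainly between bins 1 and 2 and Aldh3a1 did not pass the test.

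Besides these, 5 of the 12 genes with the largest positive differences lay outside the lists. Fscn1, the actin-bundling protein fascin, stood at 15.9 and 2.33 CPM in adhesion-low cells and 93.3 and 20.2 in adhesion-high cells (2.64 ± 0.25, edgeR adjusted p = 1.92e-23). Htra1, a secreted serine protease, stood at 30.9 and 23.3 CPM against 157 and 62.3 (1.99 ± 0.16, edgeR adjusted p = 4.1e-31). Both passed with DESeq2 and within depth deciles. Npy, the precursor of neuropeptide Y, was higher by 1.70 ± 0.20 and Ptges, the prostaglandin E synthase, by 1.71 ± 0.21 (edgeR adjusted p = 1.24e-14 and 6.31e-14). Tubb6, a beta tubulin, was higher by 1.71 ± 0.23, with 2.56 in library 1 and 0.46 in library 2. Of the 12, 8 passed with DESeq2, and Msn, Tubb6 and Dll1 were among those that did not. A summed level does not tell more RNA per cell from more cells with the RNA, so the 10 richest cells were counted. For the 11 genes described here they held between 16.4% (Itga3, 281 UMIs) and 31.6% (Dll1, 57 UMIs) of a gene's UMIs in the adhesion-high cells of library 1. In library 2 the range was 14.4% (Itga3, 180 UMIs) to 73.3% (Msn, 15 UMIs). Where a gene has so few UMIs, 10 cells hold a large share however the UMIs are spread, so the share does not settle the matter there. Levels rose at each step over all 5 bins in both libraries for 4 of the 12 (Fscn1, Lama3, Ptges and Itga3), as they did for 60 of all 9755 genes.

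Sequence upstream of the genes that moved together is shown for 2 leading genes on the higher side and 1 on the lower side, chosen after their matches were seen because each holds the letters of a KLF-type CACCC box. The windows are the 250 bases before the RefSeq start (GRCm38.p6), 5′ to 3′ on the gene's strand, with CCACCC or its reverse complement GGGTGG in capitals. Col7a1 lies at chr9:108953586-108984875 (plus strand), Itga2 at chr13:114833081-114932100 and Krt13 at chr11:100117327-100121566 (both minus strand), and their windows are chr9:108953336-108953585, chr13:114932101-114932350 and chr11:100121567-100121816.
Col7a1: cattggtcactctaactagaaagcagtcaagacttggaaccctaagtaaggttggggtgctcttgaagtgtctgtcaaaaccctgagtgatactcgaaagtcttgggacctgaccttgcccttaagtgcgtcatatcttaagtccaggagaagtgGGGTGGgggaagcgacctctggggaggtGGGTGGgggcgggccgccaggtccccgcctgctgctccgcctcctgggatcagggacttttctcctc
Itga2: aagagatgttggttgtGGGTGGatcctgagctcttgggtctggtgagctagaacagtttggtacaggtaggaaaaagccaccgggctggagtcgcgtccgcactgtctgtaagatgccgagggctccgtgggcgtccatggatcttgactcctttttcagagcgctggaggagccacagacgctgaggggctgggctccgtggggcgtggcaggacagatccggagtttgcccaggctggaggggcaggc
Krt13: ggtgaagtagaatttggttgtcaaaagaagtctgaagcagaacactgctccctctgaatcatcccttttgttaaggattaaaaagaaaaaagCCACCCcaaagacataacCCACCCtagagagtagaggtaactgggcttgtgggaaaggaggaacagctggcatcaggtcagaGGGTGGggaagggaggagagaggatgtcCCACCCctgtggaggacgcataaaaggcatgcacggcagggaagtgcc
The table held windows for 15 of the 24 leading genes. CCACCC on either strand was in 5 of 9 windows of the higher genes (Npy, Ptges, Col7a1, Itga2 and Htra1) and in 3 of 6 of the lower genes (Muc4, Asprv1 and Krt13), against 28.1% of all 32536 windows, so both directions held it. The AP-1 letters TGANTCA were in 1 window of each set (Dll1 and Krt13), against 6.73% of all windows, and the TEAD letters GGAATG in 1 of each (Ptges and Muc4), against 12.6%. These are matches of letters, not sites.

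Among general basal markers, 4 of 7 were higher and 1 was lower. Krt14, the basal keratin, stood at 6149 and 2497 CPM in adhesion-low cells and 9237 and 4421 in adhesion-high cells (0.70 ± 0.08, edgeR adjusted p = 1.26e-16). Trp63, the transcription factor p63 that maintains basal epithelial cells, stood at 126 and 137 CPM against 182 and 261 (0.73 ± 0.12, edgeR adjusted p = 1.9e-07), and caveolin 1 (Cav1) was higher by 1.04 ± 0.16, with 1.30 in library 1 and 0.65 in library 2. Cav2, named after its value was seen, was higher by 0.42. Krt5, the partner of Krt14, was lower by a small amount, with a log2 change of -0.29 ± 0.08 (edgeR adjusted p = 0.00394), which did not pass without TMM scaling. Of 5 corneal genes other than Krt12, none passed, and their log2 values lay between -0.30 and 0.09. Aldh3a1, the corneal aldehyde dehydrogenase, stood at 7797 and 10381 CPM in adhesion-low cells and 6742 and 10829 in adhesion-high cells.

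The lower side was led by surface and barrier genes. Of 24 surface differentiation genes tested, 19 were lower and 1 higher, with a median of -1.56. Krt13, a keratin of suprabasal and conjunctival-type epithelium, stood at 323 and 250 CPM in adhesion-low cells and 15.3 and 6.74 in adhesion-high cells, 25.5-fold lower in the joint fit (log2 change of -4.67 ± 0.18, edgeR adjusted p = 7.94e-145). Elf3, an epithelial differentiation factor, stood at 163 and 182 CPM against 57.2 and 39.3 (-1.82 ± 0.14, edgeR adjusted p = 1.47e-34), and fell at each step over 5 equal bins of the gate in both libraries. Muc15, a membrane mucin, stood at 42.8 and 53.5 CPM against 2.25 and 4.49 (-3.85 ± 0.32, edgeR adjusted p = 2.42e-30). Hopx, Krt80 and the protease inhibitor Spink5 were lower, with log2 changes of -4.84, -4.67 and -4.19, and so was the wound keratin Krt6b (-3.95). Within depth deciles Krt6b was at -4.23, no smaller a difference, but did not pass (edgeR adjusted p = 0.28). Hopx had 4 and 10 UMIs in adhesion-high cells against 126 and 359 in adhesion-low cells. Krt80 had 3 and 3 against 55 and 134, too few to fix its fold. Ly6d, counted among the 19, had opposite signs in the libraries (-2.32 and 1.14). The 1 surface gene that was higher was involucrin (Ivl, 1.60 ± 0.31, edgeR adjusted p = 9.43e-06), with 1.14 in library 1 and 2.41 in library 2, named after its value was seen.

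Several leading genes were almost without UMIs in adhesion-high cells. Muc4, a membrane mucin, had 1 UMI in the adhesion-high cells of each library against 137 and 381 in adhesion-low cells, a ratio of 121 (95% counting interval 21.3 to 4795) in library 1 and 316 (56.3 to 12496) in library 2. Psca, a surface antigen, had 1 and 6 UMIs against 164 and 1241, and Asprv1, a protease of cornifying cells, had 2 and 13 against 232 and 1760. Nccrp1 had 1 and 1 against 84 and 208, and Ly6g6c had 2 and 2 against 65 and 303. Ifit1bl1 had 0 and 5 against 17 and 174. In library 1 it was 4.99-fold lower when set against a floor of 3 UMIs, and its 95% counting interval started at 3.63-fold. The intervals cover counting error only.

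For several leading lower genes most UMIs came from few cells. Others were less concentrated: 10 adhesion-low cells held 26.9% and 35.7% of the Muc15 UMIs and 45.9% and 39.2% of those of Krt6b. In the adhesion-low cells of library 1, 10 of 461 cells held 100% of the Psca UMIs, 99.6% of those of Asprv1, 92.9% of Nccrp1 and 72.1% of Krt13, and in library 2, 10 of 364 cells held 73.4%, 71.8%, 60.1% and 62.6%. The 12 leading lower genes were therefore summed, and the 5% of Krt12-dominant cells richest in them were located: 72 of 115 such cells in library 1 and 67 of 91 in library 2 were among the adhesion-low cells, and 6 and 4 among the adhesion-high cells. The cut of 5% was set after these values were seen and uses the lower genes themselves. Without these cells, and with the groups taken anew, 207 genes were higher (2.16% of 9572) and 161 lower (1.68%), 3.84% in either direction, and 343 of the calls were shared with the full comparison. Of the 12 leading lower genes 6 could still be tested and 3 passed, Krt13 (log2 change of -1.58), Ly6g6c (-2.56) and Muc15 (-3.58). Of the 12 leading higher genes 11 passed. The surface list then gave 2 higher and 6 lower of 18 tested, with a median of -0.25. Each of the 8 higher linkers passed. Of 13 matrix genes 3 were higher (Lama3, Col7a1 and Agrn), against 8 with all cells, with a median of 0.75 against 0.84. Of 14 receptors 3 were higher (Itga2, Itga3 and Itgb1), against 5, with a median of 0.25 against 0.23. The cells left out were picked on the lower genes, so this does not compare how far the higher and lower genes rest on them.

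Cell-to-cell junction genes were lower in part: 5 of 16 desmosome and adherens junction genes were lower and none was higher, with a median of -0.27. The desmosomal cadherin Dsc2 stood at 251 and 261 CPM in adhesion-low cells and 114 and 116 in adhesion-high cells (log2 change of -1.15 ± 0.13, edgeR adjusted p = 8.12e-18). Dsg1a, another desmosomal cadherin, stood at 69.0 and 93.9 CPM against 17.1 and 35.4 (-1.67 ± 0.18, edgeR adjusted p = 3.65e-19). Perp, a desmosome protein and p63 target, was at -0.64, the plaque protein Pkp1 at -0.65 and plakoglobin (Jup, named after its value was seen) at -0.55. Without the cells rich in surface RNA Dsg1a, Dsc2 and Perp still passed, at -1.02, -0.57 and -0.33, and Pkp1 and Jup did not (adjusted p = 0.276 and 0.183). Within depth deciles 8 of the 16 were lower. The 11 members that did not pass, E-cadherin (Cdh1) among them, lay between -0.34 and 0.40.

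Of 10 Notch pathway genes tested, 3 were higher and 4 lower. The 3 were the ligands on the list: Jag2 stood at 34.5 and 60.5 CPM in adhesion-low cells and 97.4 and 127 in adhesion-high cells (1.27 ± 0.15, edgeR adjusted p = 1.03e-15), Dll1 at 11.9 and 13.5 against 25.7 and 65.1 (1.75 ± 0.24, edgeR adjusted p = 5.53e-11), and Jag1 at 58.3 and 72.1 against 110 and 106 (0.74 ± 0.14, edgeR adjusted p = 4.27e-06). Jag2 rose at each step over the bins in both libraries. The receptors Notch1 and Notch3 were lower, with log2 changes of -0.46 and -0.83, and so were the target genes Hes1 (-0.62) and Nrarp. Nrarp, a feedback inhibitor induced by Notch signalling, stood at 89.2 and 53.5 CPM against 27.5 and 20.2 (-1.58 ± 0.18, edgeR adjusted p = 9.8e-16). Notch1, Notch3 and Hes1 lay beyond the 4 named for this list. The 3 that did not pass, the receptor Notch2, the glycosyltransferase Lfng and the DNA-binding cofactor Rbpj, named after their values were seen, were at -0.22, 0.60 and 0.31, and ligands were not tested against other roles. The same 3 and 4 counts were found within depth deciles, and 3 higher and 2 lower without the cells rich in surface RNA, where Notch1 and Notch3 did not pass (adjusted p = 0.0673 and 0.0509). With DESeq2, Jag2 and Nrarp passed (adjusted p = 0.00718 and 0.009) and Dll1 did not (adjusted p = 0.0675).

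Of 10 limbal and fate genes tested, 2 were higher and 2 lower. Id1, an inhibitor of basic helix-loop-helix factors and a target of BMP signalling, stood at 454 and 168 CPM in adhesion-low cells and 170 and 62.9 in adhesion-high cells, 2.67-fold lower (log2 change of -1.42 ± 0.13, edgeR adjusted p = 7.53e-26). The libraries differed in level but not in the size of the difference (-1.42 in each), and Id1 fell at each step over the bins in both. Klf5 was at -0.53 ± 0.12. Abcg2, a transporter used as a stem cell marker, was higher by 0.93 ± 0.32 (edgeR adjusted p = 0.0411), and Igfbp5 by 0.58 ± 0.14, with 0.08 in library 1 and 1.08 in library 2. Without the cells rich in surface RNA Id1 still passed. Abcg2, Igfbp5 and Klf5 were then at 0.66, 0.38 and -0.27 and did not pass (edgeR adjusted p = 0.292, 0.522 and 0.299). Abcg2 kept its call under 7 and Igfbp5 under 9 of 22 alternatives. The 6 that did not pass, Sox9 and Gpha2 among them, lay between -0.25 and -0.03.

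Of 10 genes around YAP and TEAD, 4 were higher and 1 lower. Cyr61, a secreted YAP target, stood at 127 and 61.9 CPM against 214 and 82.5 (0.62 ± 0.13, edgeR adjusted p = 8.78e-05), and Ajuba, Yap1 and Amotl1 were higher by 0.61, 0.50 and 0.48. In library 2 alone Cyr61 and Ajuba were at 0.42 and 0.40. Yap1 did not pass within depth deciles (adjusted p = 0.109), where the list gave 3 higher and 2 lower. Ajuba, Amotl1 and Tead3 did not pass without the cells rich in surface RNA (edgeR adjusted p = 0.183, 0.117 and 0.604). Ajuba and Amotl1 were then at 0.45 and 0.42. Tead3, named after its value was seen, was at -1.02. None of these 5 was called by DESeq2. In the interferon list 4 of 17 were higher and 1 lower, against 4.53% and 5.96% of all genes. Ifitm3 was the clearest, at 667 and 381 CPM in adhesion-low cells and 1088 and 684 in adhesion-high cells (0.77 ± 0.11, edgeR adjusted p = 5.76e-11). Ifit3 was higher by 0.77, with 0.26 in library 1 (20 UMIs in adhesion-high against 19 in adhesion-low cells) and 0.88 in library 2, and did not pass within strata of depth and quality (adjusted p = 0.234). Stat2, named after its value was seen, was higher by 0.86, and Oasl1 was at -1.60. Rsad2, although called, had 2 and 1 UMIs in library 1 and rested on 23 against 81 UMIs in library 2.

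The wound and stress list gave 1 higher and 4 lower of 10, but the libraries disagreed. Krt16, a wound keratin, stood at 859 CPM in adhesion-low cells and 195 in adhesion-high cells of library 1, and at 121 and 136 in library 2, so its call (edgeR adjusted p = 1.25e-16) rests on 1 library and DESeq2 did not make it. Krt6a was at -0.31 in library 1 and -1.44 in library 2. In the joint fit Krt6a and Krt16 were at -0.87 and -1.13. Within depth deciles they were at -1.06 and -1.34 but did not pass (edgeR adjusted p = 0.644 and 0.759). Lcn2 also had opposite signs, -1.83 and 0.11. Akr1b8, an aldo-keto reductase, was higher in both, by 1.25 and 1.24. In the conjunctival list 3 of 5 were lower and 1 higher. Krt4 was lower with Krt13, at 48 and 39 UMIs in adhesion-low cells against 2 and 5 in adhesion-high cells. Krt19 had log2 values of 0.09 and -3.35 in the libraries, and Krt18 was higher by 1.12 ± 0.25.

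Cell cycle genes differed little, in cells that had all been sorted for the reporter. Of 43 S phase genes 1 was higher (Hells, 0.40) and of 55 G2/M genes 1 was lower (Jpt1, log2 change of -0.36), against 4.53% and 5.96% of all genes, with medians of -0.0025 and -0.05. Immediate early genes gave 1 lower of 14 (Zfp36, -0.35, with -0.22 in library 1) and ribosomal protein genes 1 lower of 80 (Rps18, -0.26), which did not pass within depth deciles (adjusted p = 0.11). Of 74 nuclear-encoded respiratory chain genes 11 were lower, with a median of -0.23, and Ndufa4 stood at 2386 and 1655 CPM in adhesion-low cells and 2016 and 1128 in adhesion-high cells (-0.40 ± 0.09, edgeR adjusted p = 0.00056; -0.24 in library 1 and -0.55 in library 2). Within depth deciles 5 of the 74 were lower, near the 6.5% of all genes, and without the cells rich in surface RNA edgeR called 0 of 74 (28 were lower at an unadjusted p under 0.05), with Ndufa4 at an adjusted p of 0.209. DESeq2 called 0 of them in the groups by library. Mitochondrial genome transcripts were higher for 8 of 13, but for 1 of 13 (mt-Nd4l) when the groups were matched for depth. Malat1 was higher by 0.38 in the groups by library and by 0.18 within depth deciles. The part that RNA quality plays in the other differences was not tested beyond these matched groups.

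**Figure D3:**
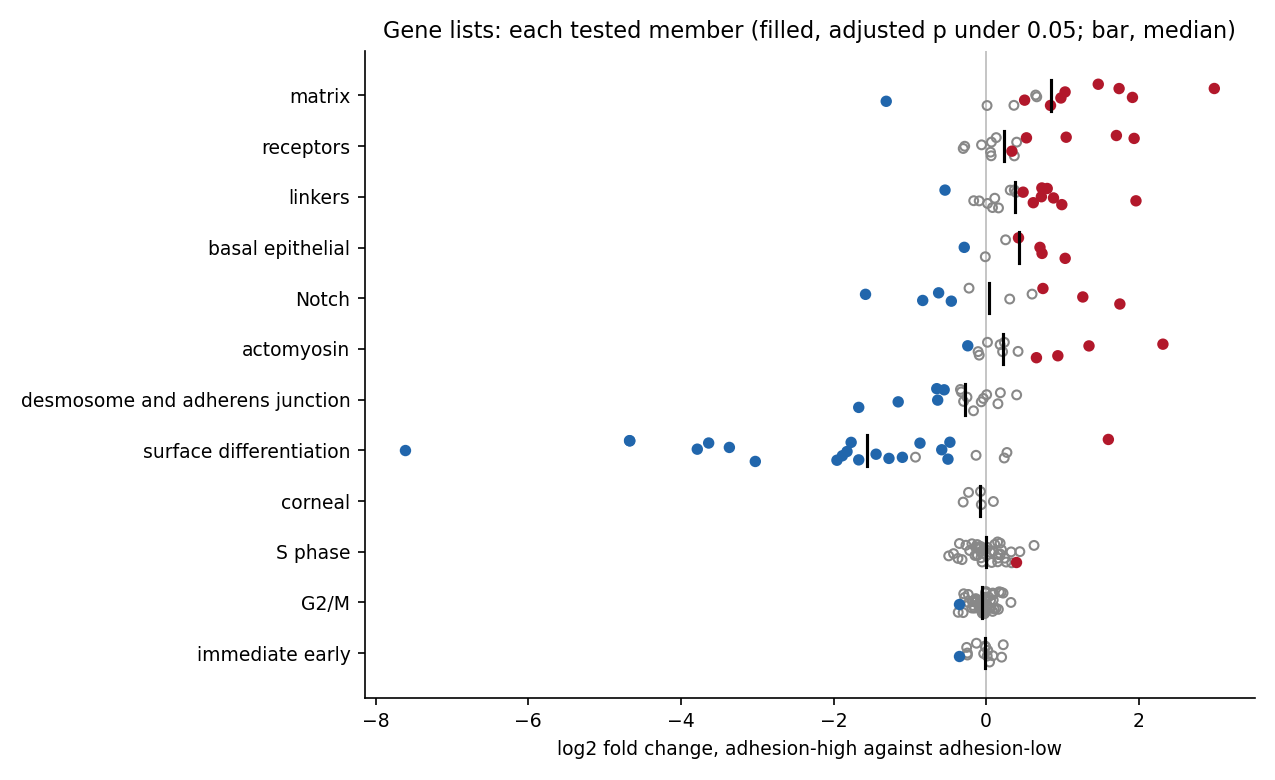
Log2 fold change of each tested member (x axis, adhesion-high against adhesion-low) in 12 gene lists (y axis), with members past an edgeR adjusted p of 0.05 filled (red higher, blue lower), the others open, and the median of each list as a bar. Matrix, receptor and linker genes lie mostly to the right, with medians of 0.84, 0.23 and 0.38, and surface genes to the left, with a median of -1.56.

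The same gate was applied to the 1437 Krt15-dominant cells of the sort (Krt12 fraction under 0.2), 547 in library 1 and 890 in library 2. This asked whether the differences also held there. The gate also split these cells by conjunctival keratins. Krt4 stood at 908 and 1595 CPM in their adhesion-low cells and 141 and 131 in their adhesion-high cells, and Krt13 at 728 and 1517 against 83.2 and 75.8. Krt19 stood there at 625 and 1356 CPM against 49.2 and 87.5, a log2 difference of -3.85 that did not pass (edgeR adjusted p = 0.155). Krt18 was at -0.40 there and did not pass either. In Krt12-dominant cells Krt4 stood at 19.0 and 18.4 against 0.90 and 2.85. A split by cell type within Krt15-dominant cells cannot be told apart here from a difference between the classes. In Krt15-dominant cells 457 genes were higher (4.79% of 9531) and 640 lower (6.71%) between their own adhesion-high and adhesion-low groups of 287 cells each. Of the 24 leading genes 23 had the same sign there, and 20 passed. The exception in sign was Npy, with no UMI in 3 of the 4 Krt15-dominant sums. The difference between the 2 classes was tested as an interaction, which 79 genes passed upwards (0.829%) and 61 downwards (0.64%), or 1.47% in all, and none of the 24 leading genes was among them. A p that misses the threshold does not show that the classes are alike. Among 129 genes named by rule, 11 passed.

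Id1 was the clearest. In Krt15-dominant cells it stood at 524 and 366 CPM in adhesion-low cells and 468 and 338 in adhesion-high cells, a log2 difference of -0.14 that did not pass, against -1.42 in Krt12-dominant cells (interaction -1.28 ± 0.19, edgeR adjusted p = 1.67e-05). Krt14 did not pass there, with a log2 difference of 0.04, at 8305 and 7677 CPM against 9534 and 7035 (interaction 0.67 ± 0.10, edgeR adjusted p = 0.000102). Jag2 and Dst moved in the same direction in both classes but by less in Krt12-dominant cells. For Jag2 the values were 1.27 against 2.89 (interaction -1.62 ± 0.34, edgeR adjusted p = 0.00238), and for Dst 0.80 against 1.57 (interaction -0.77 ± 0.18, edgeR adjusted p = 0.0114). Id1, Krt14, Jag2, Dst and Ndufa4 also passed with both classes gated within depth deciles, where Id1 was at -1.28 (adjusted p = 0.00107). Without the library block none of the 9531 genes passed, though 540 had an unadjusted p under 0.05.

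**Figure D4:**
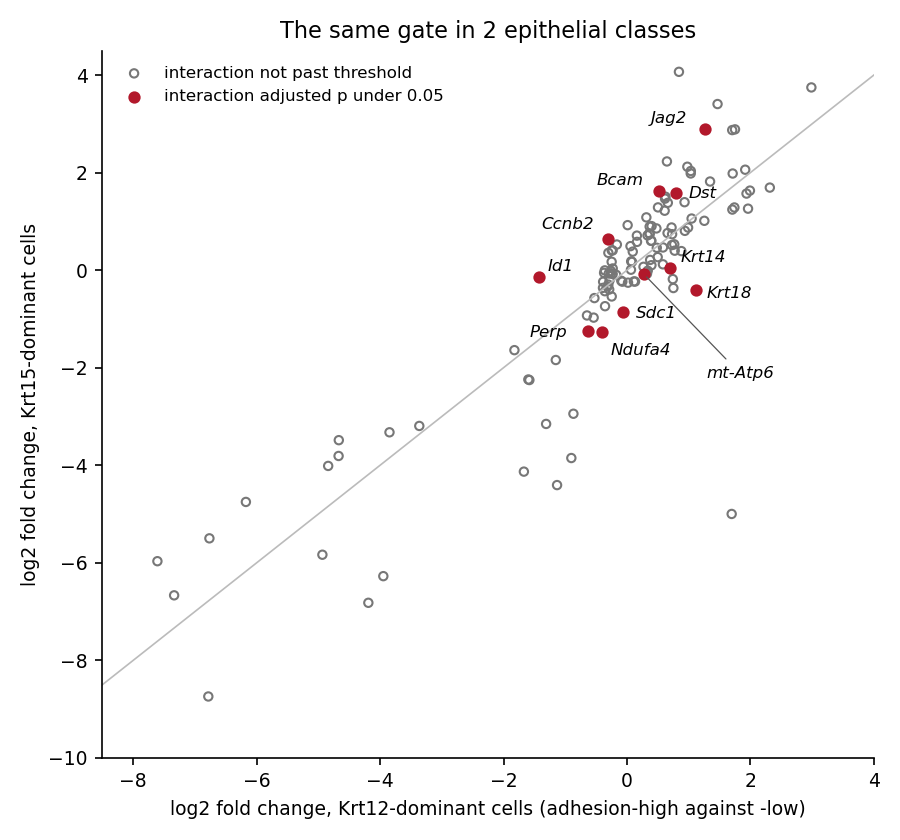
Log2 fold change of the named genes between adhesion-high and adhesion-low groups in Krt12-dominant cells (x axis) and Krt15-dominant cells (y axis), with the line of equal values and the 11 genes past the interaction threshold in red. Id1 and Krt14 moved in Krt12-dominant cells, at -1.42 and 0.70, and lay near 0 in Krt15-dominant cells, at -0.14 and 0.04.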

How the data were processed

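The deposited matrix holds UMI counts for 31053 genes, and its header names software version 3.1.0, as deposited. Cell Ranger 3.1.0, Seurat 5.0.0 and GRCm38/mm10 are listed per the submitters' processing notes, and whether the authors equalised depth between libraries is not given in the sources used here. The members, gene lists and tests were chosen with earlier results of these data known.

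Counts were summed per library and group (adhesion-high, adhesion-low), without the 6 gate genes, and tested in R 4.3.3 with edgeR 4.0.16 (robust quasi-likelihood, TMM, filterByExpr, library block, 4 sums and 1 residual degree of freedom), with DESeq2 1.42.0 as an alternative. The block joins both groups of 1 library, which share their cells' source. The comparison with Krt15-dominant cells used 8 sums. Standard errors were taken as the absolute log2 fold change over the square root of F. The fits were run on simulated counts with the same spread for every gene, so the effect of libraries that disagree for a gene was not tested. Named genes were the 12 largest called changes in each direction whose library values agreed in sign and whose mean level reached 20 CPM, and up to 4 members per list with the smallest p (all matrix, receptor and linker members). Gene positions are from the GENCODE annotation of GRCm38 and windows from RefSeq. Alternatives changed the scaling, filter, block, gate, depth and cell filters. One gene included in the counts is not reported here by name.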

Additional observations from a re-analysis of the deposited data

Results flagged for a closer look

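Differences between Krt12-dominant and Krt15-dominant cells were seen for 11 of the named genes, by an interaction term in edgeR (adjusted over 9531 genes). Each library was its own block within a class, and with 2 libraries no sample could be tested as an outlier. Besides Id1 (interaction -1.28), Krt14 (0.67), Jag2 (-1.62) and Dst (-0.77), Ndufa4, a subunit associated with cytochrome oxidase, was at -0.40 in Krt12-dominant and -1.28 in Krt15-dominant cells (interaction 0.88 ± 0.14, edgeR adjusted p = 8.78e-05). Bcam was higher by 0.53 and 1.63 (interaction -1.10, edgeR adjusted p = 0.00603), and Perp was at -0.64 and -1.25 (interaction 0.62, edgeR adjusted p = 0.00616). Ccnb2, cyclin B2, did not pass in Krt12-dominant cells (-0.30) and was higher by 0.63 in Krt15-dominant cells (interaction -0.93, edgeR adjusted p = 0.00671). Sdc1, syndecan 1, was at -0.06 and -0.85 (interaction 0.79, edgeR adjusted p = 0.00877). Krt18 was at 1.12 and -0.40 (interaction 1.52, edgeR adjusted p = 0.0183), and mt-Atp6 at 0.27 and -0.08 (interaction 0.35, edgeR adjusted p = 0.0249). These last 6 did not pass with both classes gated within depth deciles, where their adjusted p lay between 0.0692 (Perp) and 0.655 (mt-Atp6).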

How the results depend on the processing

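Of 96 genes reported, 6 kept their direction and their side of the threshold under all 22 alternatives other than leaving out a library: Lama3, Itga3, Krt13, Elf3, Dsc2 and Muc15. Counts of higher and lower genes moved most from 442 and 581 with no replicate block (13 and 32, with the pairing of groups by library dropped) and with DESeq2 (28 and 93). They were 59 and 115 with cells thinned to 2000 UMIs, 119 and 238 for cells with at least 2000 UMIs, 206 and 315 under a 10% mitochondrial limit, 271 and 382 with top and bottom 10%, 222 and 292 with a Krt12 fraction above 0.95, 159 and 265 with the gate without Col17a1, 203 and 332 within cell cycle strata, and 207 and 161 without the cells rich in surface RNA. The interaction's 140 genes became 0 with no replicate block, 66 within depth deciles and 85 with a Krt15-dominant limit of 0.5. Gating within strata of quality or ribosomal share and leaving out surface-rich cells were chosen after seeing the data. The cause of these moves was not tested.

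Signs turned without the surface-rich cells for Krt16 (0.32), Krt6a (0.32), Krt19 (1.68), Ly6d (0.18) and Sdc1 (0.094). With the gate without Col17a1 they turned for Ly6d (0.29), Lcn2 (0.57), Hells (-0.030), Malat1 (-0.016) and mt-Atp6 (-0.010). Other turns were Lcn2 (0.71) with equal weights, Aldh3a1 (0.039) with the gate without Itga6, Sdc1 (0.0022) within stress strata, Ccnb2 (0.080) in thinned cells and mt-Atp6 (-0.013) within depth and quality strata. Leaving out a library left no residual degrees of freedom, so each library's value stands alone, from -0.55 to 2.07 for Rsad2, -2.14 to 0.17 for Krt16, -3.35 to 0.088 for Krt19, -2.32 to 1.14 for Ly6d, -1.83 to 0.11 for Lcn2 and -0.21 to 0.061 for Aldh3a1. Depth limits the low genes: 3 or fewer UMIs in a sum fix no fold.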
